A study of Rattus norvegicus with 4 samples.

Results

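The microRNAs (miRNAs) followed here, all made by white blood cells, were compared across rats with and without hepatocellular carcinoma (HCC): rno-miR-223-3p, rno-miR-142-3p, rno-miR-142-5p, rno-miR-146a-5p and rno-miR-146b-5p. They were chosen by name and make up 5 of the 719 rat miRNAs on the array. RNA from exosomes, vesicles that cells release into blood, was taken from the serum of male rats and hybridised to 4 Agilent arrays, 1 for each of 4 groups. The groups were naive rats without injection (day 0), light HCC at day 35, moderate HCC at day 49 and severe HCC at day 49. The treatment protocol has an HCC cell line put into the rats, while the design text speaks of HCC exosomes in 1 dose and of baffolo rats; the cell line is not named, and the 2 accounts were not reconciled. Per the design text, 4 experiments were done at each time in different rats; a single array stands for each group here, and pooling is not mentioned.

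With 1 array per group there was no spread between animals to compare with, and no p-value could be given. Every ± below is a standard error over the replicate spots of a miRNA on 1 array and covers spot noise alone. Each comparison is therefore one between 2 arrays. In each comparison with the naive or the light array the disease stage and the day cannot be told apart. Exosomes in serum come from many tissues, so fewer cells of a type, fewer vesicles per cell and less of a miRNA per vesicle cannot be told apart either.

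miRNAs are short RNAs that guide a silencing complex to messenger RNAs, mainly through the seed, bases 2 to 8 from the 5′ end. miR-223 is made at high levels in neutrophils and other myeloid cells, and also in platelets, and it limits granulocyte production and activation. miR-142 is made in all blood cell lineages, and both arms of its hairpin are used. miR-146a and miR-146b are induced by NF-κB, the transcription factor of inflammatory signalling, and repress the adaptors Traf6 and Irak1 in a negative feedback loop.

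The mature sequences are shown because the members differ in what they can pair with and in how well probes can tell them apart. All 5 were found in the RefSeq table of build GRCr8, and capitals mark the seed.
miR-223-3p: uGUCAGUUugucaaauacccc
miR-142-3p: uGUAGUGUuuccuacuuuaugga
miR-142-5p: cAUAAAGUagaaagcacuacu
miR-146a-5p: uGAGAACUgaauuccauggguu
miR-146b-5p: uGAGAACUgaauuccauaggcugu

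The miR-146 pair shared the seed GAGAACU, and no other rat miRNA in that table had any of the 4 seeds. Over the 22 bases they have in common, miR-146a-5p and miR-146b-5p were identical at 20 and differed by G18A and U21C, with the base of miR-146a first and positions counted from the 5′ end. miR-146b-5p has 2 further bases at its 3′ end. Their probes may bind both, so the separate values of this pair are uncertain.

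In GRCr8, miR-223-3p lies at chrX:65151450-65151470 on the plus strand, where it overlaps the long non-coding RNA gene LOC120099372. The miR-142 arms lie at chr10:73055119-73055139 (5p) and chr10:73055155-73055177 (3p), both on the plus strand, and overlap Tspoap1. miR-146a-5p lies at chr10:28350053-28350074 on the minus strand, where it overlaps the long non-coding RNA gene LOC134480673. miR-146b-5p lies at chr1:255144874-255144897 on the plus strand, where it overlaps C1h10orf95. Only overlap of positions was examined, not the strand of these genes or whether the places are exonic or intronic. The hairpin of Mir142 (chr10:73055104-73055190) is shown because its arms gave different results. Capitals mark the 5p arm first and the 3p arm second.
Mir142 hairpin: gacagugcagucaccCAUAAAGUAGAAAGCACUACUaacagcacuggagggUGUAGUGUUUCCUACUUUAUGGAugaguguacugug

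Each member had 2 probes with 10 spots each, 20 spots per array, and 0 of them were saturated. The spot signals were averaged per probe and summed over the probes, in intensity units. The arrays differed in brightness. The signal summed over detected miRNAs was 139132 on the naive, 89448 on the light, 220104 on the moderate and 96613 on the severe array. Each array was therefore divided by its 75th percentile over the 111 miRNAs that the scanner software detected on all 4 arrays. The result is called the scaled signal, and differences are given on its log2 scale, where 1 is 2-fold. A miRNA was measured where it was detected and reached the array's floor, 13.1 to 16.01 intensity units. miR-451-5p of red cells, taken as a check of blood-derived RNA, was detected on every array.

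miR-223-3p, the myeloid member, was lowest on the severe array. Its signal was 6534 ± 36.1 on the naive, 4880 ± 37.99 on the light, 14519 ± 76.1 on the moderate and 2161 ± 18.4 on the severe array. The severe array was the lowest before and after scaling, and for both probes the spots of the 4 arrays did not overlap. The scaled signal was 9.81, 13.7, 15.2 and 5.21 in the same order. The moderate and light arrays thus stood above the naive array after scaling, whereas before scaling the light array stood below it. miR-223-3p made up 4.70% of the detected signal on the naive, 5.46% on the light, 6.60% on the moderate and 2.24% on the severe array.

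The 3p arm of miR-142 had another pattern. Its signal was 516 ± 4.74 on the naive, 475 ± 6.996 on the light, 400.3 ± 1.84 on the moderate and 328 ± 2.14 on the severe array. The moderate array, the brightest for 78 of the 104 miRNAs measured on all 4 arrays, was not the brightest here. miR-142-3p was the 1 miRNA of those 104 whose unscaled signal came down from naive to light to moderate to severe, an order looked for after its values were seen. After scaling it stood at 0.774 on the naive, 1.34 on the light, 0.420 on the moderate and 0.790 on the severe array. The light array was highest and the moderate array lowest, and the naive and severe arrays differed by 0.03 ± 0.02 (log2), which lay within spot noise.

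The 5p arm of miR-142, cut from the same hairpin, followed the brightness of the arrays more closely. Its signal was 222 ± 1.73 on the naive, 196 ± 2.06 on the light, 354 ± 2.53 on the moderate and 88.9 ± 1.55 on the severe array. After scaling it stood at 0.333, 0.551, 0.372 and 0.214 in that order, with the severe array lowest.

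miR-146a-5p had a signal of 224 ± 2.93 on the naive, 186 ± 2.10 on the light, 458 ± 4.58 on the moderate and 103 ± 1.92 on the severe array. Scaled, it stood at 0.337, 0.522, 0.480 and 0.248, so the severe array was again lowest and the light and moderate arrays were the highest. miR-146b-5p was dim, at 41.2 ± 1.20 on the naive, 23.3 ± 0.967 on the light and 69.1 ± 1.29 on the moderate array. On the severe array its signal of 11.6 ± 0.995 was under the floor of 16.01 and was not called detected, with 0 of 20 spots well above background. On the light array 5 of 20 spots were well above background, against 15 on the naive and 20 on the moderate array. Among the measured levels, each neighbour in the order of a member's scaled signals differed from the next by more than the 95% interval of spot noise, except miR-142-3p on the naive and severe arrays and miR-146b-5p on the naive and light arrays. Whether binding of miR-146a to the miR-146b probes gave part of the miR-146b-5p signal was not tested.

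**Figure D1:**
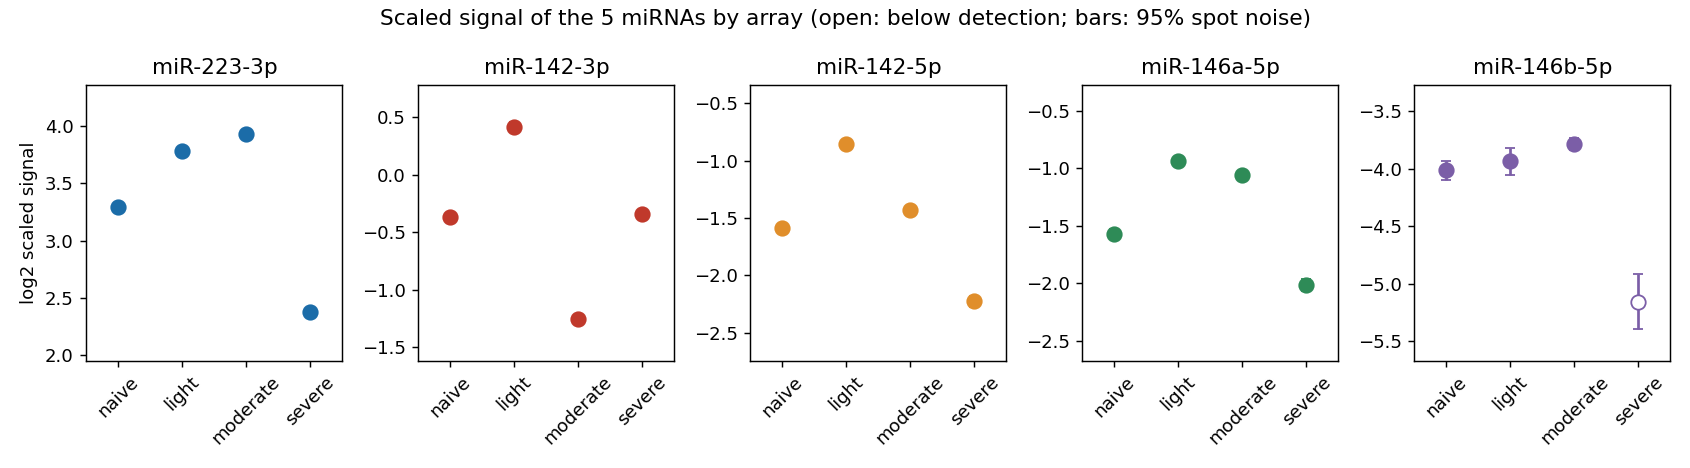
Log2 scaled signal (vertical axis, each panel spanning the same range) of the 5 miRNAs by array, from naive to severe, 1 point per array with 95% intervals from spot noise. miR-142-3p has the moderate array lowest; the others have the severe array lowest, where miR-146b-5p is drawn open because it was not detected.

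For the 4 brighter members the 2 probes of a miRNA gave nearly the same differences between arrays. Over these members and the 6 pairs of arrays, the log2 differences of the 2 probes lay 0.001 to 0.10 apart. The widest gap was that of miR-146a-5p for light against naive, with 0.70 from one probe and 0.60 from the other. For miR-142-3p the probes gave −0.88 and −0.89 for moderate against naive. The probes of the dim miR-146b-5p disagreed, with −0.07 and 0.17 for light against naive and −1.58 and −0.92 for severe against naive, though on the severe array their signal was under the floor. On the moderate array 4 of the 20 miR-142-3p spots were marked as outliers and left out, and with them kept the difference was −0.89.

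**Figure D2:**
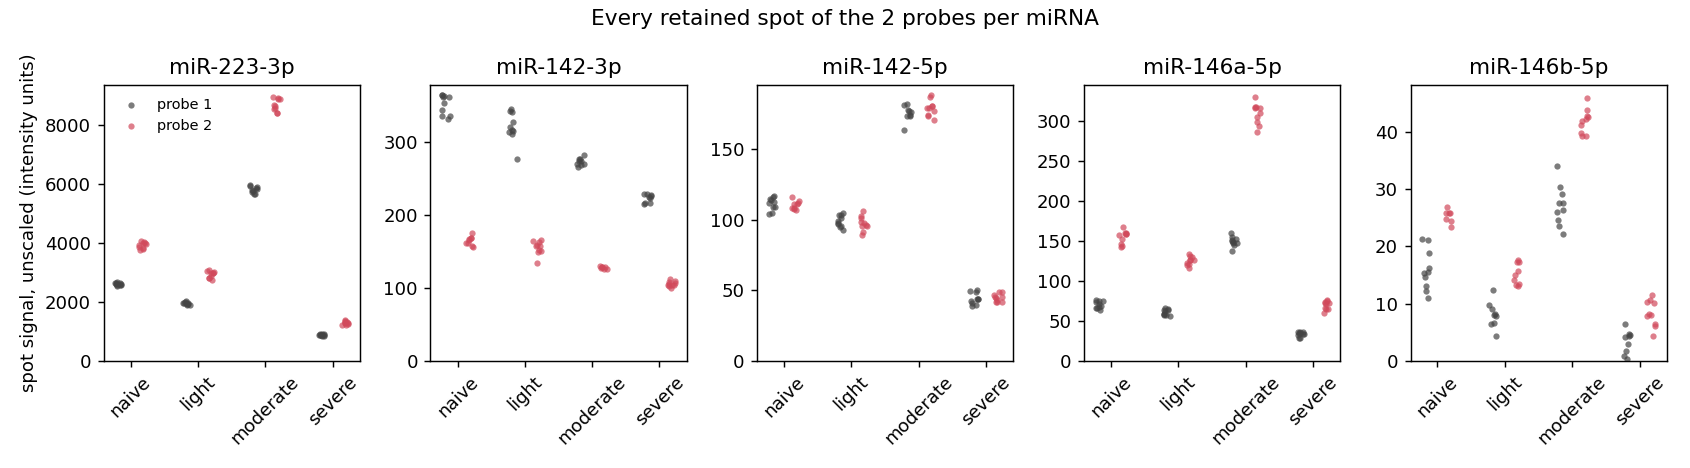
Unscaled signal (intensity units, axis from 0) of every retained spot, with the 2 probes of each miRNA in 2 colours, by array. For the 4 brighter members the spots of a probe lie close together, while those of miR-146b-5p scatter more; miR-142-3p steps down from naive to severe while the others peak on the moderate array.

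The other arms of these hairpins were not detected on any array. miR-223-5p had background-subtracted sums of −23.2 to −14.8, miR-146a-3p of −9.44 to −6.56 and miR-146b-3p of −14.1 to −9.03, with 0 of 20 spots well above background on each array. By these probes, 1 arm was thus detected for Mir223 and for each miR-146 hairpin, and both arms for Mir142. An arm that was not detected may still have been present.

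In light disease at day 35, set against the naive array, all 5 members had positive log2 differences after scaling and none reached 2-fold. miR-142-3p stood at 0.79 ± 0.03, miR-142-5p at 0.73 ± 0.02, miR-146a-5p at 0.63 ± 0.02, miR-223-3p at 0.48 ± 0.01 and miR-146b-5p at 0.08 ± 0.07, the last within spot noise. The members' median was 0.63, beside 0.27 over all 117 miRNAs measured on both arrays. Of those 117 miRNAs, 1.71% passed 2-fold upward and 0.855% downward, so 0 of 5 members past 2-fold is close to the background. Before scaling all 5 members, and 114 of the 117 miRNAs, were lower on the light array. The sign therefore depends on the scaling. The rank does not depend on a common factor: miR-142-3p had the 9th highest difference of the 117, miR-142-5p the 16th, miR-146a-5p the 23rd and miR-223-3p the 35th, while miR-146b-5p came 80th. The difference of miR-223-3p exceeded the median of all miRNAs in the reported setting and 14 of 16 alternatives. It fell to or under that median in the remaining ones (normexp background correction, and raw spot signal minus local background). Alternatives that alter only a common factor could not change its distance from the median.

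In moderate disease at day 49 the members parted. miR-223-3p stood at 0.63 ± 0.01 and miR-146a-5p at 0.51 ± 0.02 against naive, with miR-142-5p at 0.16 ± 0.02. miR-146b-5p stood at 0.23 ± 0.05, but its sign turned with quantile normalization (−0.28), normexp (−0.23) and raw spot signal minus local background (−0.14). miR-142-3p stood at −0.88 ± 0.01, 1.84-fold lower, the 3rd lowest of the 126 miRNAs measured on both arrays. Before scaling, 109 of the 126 miRNAs were higher on the moderate array, and miR-142-3p was among the 17 that were lower. No member passed 2-fold in either direction, where 6.35% of all miRNAs did so upward and 0.794% downward. The members' median of 0.23 was close to the 0.22 of all miRNAs. miR-142-3p lay under the median of all miRNAs in all 16 alternatives, by 0.60 to 1.28. Those that alter only a common factor could not change this distance and repeated the reported −1.11. The difference of miR-142-3p itself ran from −1.02 (median scaling) to −0.20 (spike-in scaling). With spike-in scaling miR-223-3p and miR-146a-5p passed 2-fold, at 1.32 and 1.19. Set against the light array, miR-142-3p was the lowest of 117 miRNAs, at −1.67 ± 0.02 (3.18-fold lower), while miR-223-3p stood at 0.15 ± 0.01.

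In severe disease at day 49 miR-223-3p stood at −0.91 ± 0.01 against naive, 1.88-fold lower and just inside the 2-fold threshold. miR-142-5p stood at −0.64 ± 0.03 and miR-146a-5p at −0.44 ± 0.03. miR-142-3p stood at 0.03 ± 0.02. For miR-146b-5p the bound was 1.60-fold lower. It sets the sum of 2 probes on the naive array against a floor taken from 1 probe and so is not strict. Thus 0 of the 4 members measured on both arrays passed 2-fold, although 19.3% of the 109 miRNAs measured there passed 2-fold downward and 22% upward. The members' median was −0.54, beside −0.11 over all miRNAs. miR-223-3p passed 2-fold without scaling (−1.60), with normexp (−1.07), with the percentile taken over miRNAs detected on the 3 arrays other than severe (−1.03) and in the total signal of the scanner software (−1.003). Without scaling miR-142-5p and miR-146a-5p passed it too, at −1.32 and −1.13. Set against the light array, miR-223-3p stood at −1.40 ± 0.02, miR-142-5p at −1.37 ± 0.03 and miR-146a-5p at −1.08 ± 0.03, all past 2-fold. There miR-142-3p stood at −0.76 ± 0.02. Over all 104 miRNAs measured on those arrays the median was −0.47 and the lower quartile −1.12, itself past 2-fold. miR-223-3p was the 13th lowest of them.

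Both day 49 arrays allow moderate and severe disease to be set against each other at an equal time. miR-223-3p was 2.92-fold lower on the severe array (log2 −1.55 ± 0.01), the 7th lowest of 115 miRNAs. Over the alternatives, which ranked 98 to 175 miRNAs, it came between 2nd and 24th lowest. miR-146a-5p stood at −0.96 ± 0.03 and miR-142-5p at −0.80 ± 0.03. For miR-146b-5p the bound was 1.88-fold lower, again not strict. miR-142-3p went the other way, at 0.91 ± 0.01, 1.88-fold higher. Thus 1 of 4 measured members was at least 2-fold lower and 0 higher, where 20% of all miRNAs passed 2-fold downward and 22.6% upward. The share of members was near that background. The median of the members was −0.88 and that of all miRNAs −0.41. miR-223-3p was lower by more than 2-fold under all 16 alternatives tried. The positive difference of miR-142-3p held for 15 of them and turned to −0.29 without scaling.

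**Figure D3:**
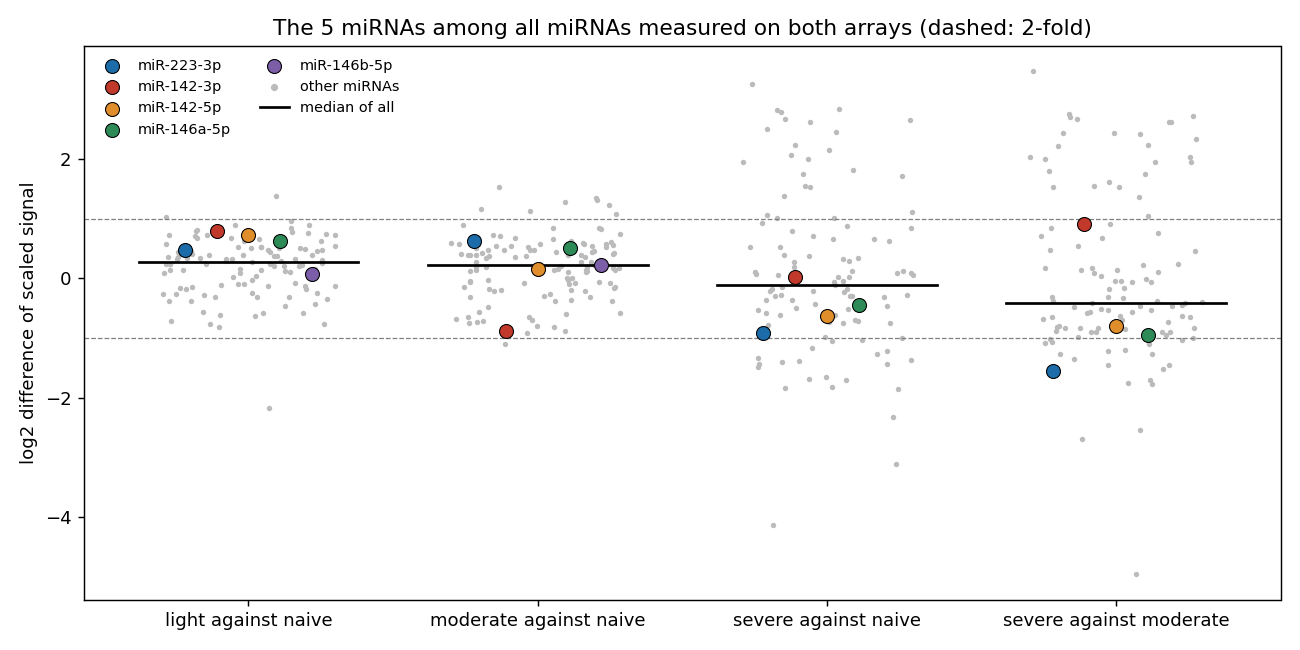
Log2 difference of scaled signal (vertical axis) for every miRNA measured on both arrays of 4 comparisons, with the members as large coloured points, other miRNAs as grey dots, the median of all as a black line and 2-fold as dashed lines. miR-142-3p lies near the bottom of the moderate comparison and above the other members in both severe comparisons; miR-146b-5p has no point there because it was not detected on the severe array.

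Because the arms of miR-142 come from 1 hairpin, their ratio within an array was followed from array to array; a scaling factor cancels in it. The level of one probe set cannot be compared with that of another, so the ratio itself has no meaning as an amount and its shift between arrays is what was read. The 3p signal over the 5p signal was 2.33 ± 0.03 on the naive and 2.42 ± 0.04 on the light array, then 1.13 ± 0.01 on the moderate and 3.69 ± 0.07 on the severe array. The naive and light arrays thus had nearly the same ratio, and the arrays of day 49 lay on either side of them. As log2 differences of 5p minus 3p, this was −0.06 ± 0.03 for light against naive, 1.04 ± 0.02 for moderate against naive, −0.67 ± 0.03 for severe against naive and −1.71 ± 0.03 for severe against moderate. The 4 combinations of a 3p probe with a 5p probe gave 1.02 to 1.07 for moderate against naive and −1.73 to −1.70 for severe against moderate. Over the 16 alternatives the arm difference stayed between 0.75 and 1.06, and between −1.71 and −0.95, in these comparisons. Normexp gave the smallest sizes. Those of the 16 that alter only a common factor or the detection rule could not move the arm difference and repeated the reported values. For severe against naive it shrank to −0.20 with normexp and −0.39 with raw spot signal minus local background, and for light against naive it turned to 0.17 with quantile normalization. What set the arms apart was not tested.

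Few hairpins had both arms measured. Of 262 arm pairs on the array, 7 could be compared for moderate against naive, and among them miR-142 had the largest arm difference, beside a median size of 0.23. For severe against moderate its arm difference was the 4th largest of 7, the median of those pairs, so 3 other pairs diverged more in that comparison. For severe against naive it was the 3rd largest of 5, again the median, with miR-652 the largest at a size of 5.09. For light against naive the miR-142 arm difference was the smallest of 6.

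**Figure D4:**
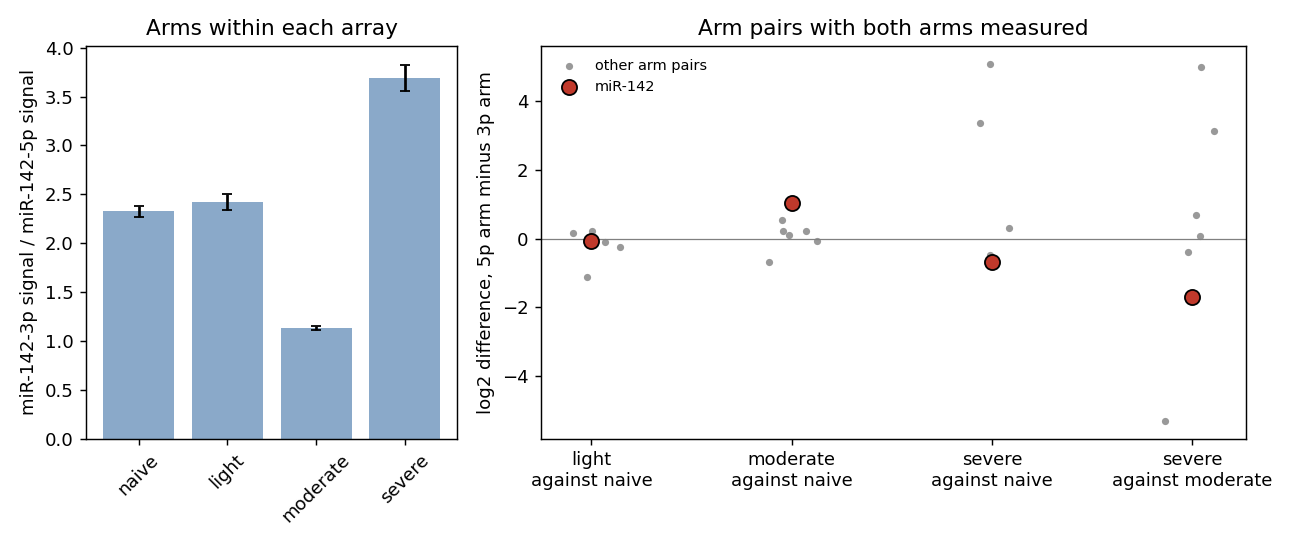
Left, ratio of miR-142-3p to miR-142-5p signal on each array (bars from 0, 95% intervals from spot noise). Right, log2 difference of the 5p arm minus that of the 3p arm for every pair with both arms measured, miR-142 in red: it stands above 0 for moderate against naive and below 0 for severe against moderate.

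A contrast of the same kind held between miR-223-3p and miR-142-3p. Their log2 differences stood 0.30 apart for light against naive, with miR-142-3p the higher. For moderate against naive miR-223-3p exceeded miR-142-3p by 1.52 ± 0.02 (2.86-fold). For severe against moderate it fell short by 2.46 ± 0.02 (5.51-fold). miR-223-3p and miR-146a-5p kept closer together, 0.12 ± 0.03 apart for moderate against naive and 0.59 ± 0.03 for severe against moderate.

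The patterns over the 4 arrays were compared by the distance between log2 scaled signals, each centred on its own mean, among the 104 miRNAs measured on all arrays; 0 is an identical pattern and the median over all pairs was 1.23. With 4 arrays this is a description. miR-146a-5p and miR-142-5p were the closest members, at 0.35, followed by miR-223-3p and miR-146a-5p at 0.44. miR-142-3p lay 1.23 from its own 5p arm and 1.81 from miR-223-3p. Outside the group, the nearest to miR-223-3p were miR-26b-5p (0.32), miR-326-3p (0.35) and miR-18a-5p (0.38). Those nearest to miR-146a-5p were miR-19b-3p (0.10), miR-185-5p (0.14) and miR-3473 (0.14), and those nearest to miR-142-5p were miR-140-3p (0.22), miR-20b-5p (0.23) and miR-3473 (0.24). miR-142-3p had no close neighbour: miR-466b-5p came first at 0.63, then miR-101b-3p at 1.13 and miR-451-5p, the red-cell miRNA, at 1.14.

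The miR-146 pair was also set beside other miRNAs linked to NF-κB or to leukocyte activation. Of that list of 5, miR-155-5p was not matched by name on the array and miR-132-3p was not detected on any array. miR-21-5p, which is induced in many inflamed and tumour tissues, was 2.08-fold higher on the severe than on the naive array (log2 1.06 ± 0.02). miR-146a-5p was 1.36-fold lower. The value of miR-21-5p lay just past the threshold and rests on the scaling. Its unscaled signal was 2551 ± 30.5 on the severe and 1969 ± 7.90 on the naive array. So 1 of the 2 list members measured on both of those arrays was at least 2-fold higher and 0 were lower, too few to read against the 22% of all miRNAs that passed 2-fold upward there and the 19.3% downward.

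Lymphocyte miRNAs were also lower on the severe array. Of the 5 on the list, 2 were detected there, against 5 on each of the others. Of all 719 miRNAs, 140 (naive), 122 (light), 176 (moderate) and 129 (severe) were detected. The list members not detected were miR-181a-5p, miR-181b-5p and miR-181c-5p. The first 2 were dim on the naive array, at 38.9 ± 1.03 and 27.2 ± 1.29. On the moderate array they were already 1.75-fold and 2.15-fold lower than naive after scaling. The summed scaled signal of the detected list members was 1.53 (naive), 1.59 (light), 1.28 (moderate) and 0.316 (severe). miR-150-5p, abundant in mature B and T cells, had a signal of 502 ± 3.68 on the naive and 36.3 ± 1.33 on the severe array, 8.62-fold lower after scaling, and miR-342-3p was 2.52-fold lower. Both passed 2-fold there, as did 19.3% of all miRNAs, whereas miR-223-3p at 1.88-fold did not; the difference between the miRNAs was not tested. The miR-181 members had bounds against naive, 1.52-fold, 1.06-fold and 2.65-fold lower for the a, b and c forms. As for miR-146b-5p, a sum over probes was set against a floor taken from 1 probe. These bounds are therefore not strict, and the differences may be smaller. The other arm of the miR-150 hairpin, miR-150-3p, went the opposite way, with a log2 difference of 2.76 for severe against moderate; it was named after its values were seen.

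Markers of other sources moved as well, and their part in the members' values was not tested. The 4 red-cell miRNAs matched on the array had sums of scaled signal of 52.6 (naive), 67.9 (light), 57.8 (moderate) and 41.3 (severe), the severe array lowest as for miR-223-3p. miR-451-5p made up most of this sum and was 1.23-fold lower on the severe than on the naive array, whereas miR-144-3p was 3.53-fold higher. miR-144-5p was not detected on the naive and light arrays, and miR-486 was not matched by name. The platelet and endothelial list, which bears on miR-223 because platelets carry it, had 8.18, 10.8, 10.6 and 7.38 in the same order over 5 miRNAs. Its miR-126a-5p and miR-191a-5p were not detected on the light and severe arrays. The 3 hepatocyte miRNAs summed to 2.17, 0.795, 1.496 and 2.42 with miR-194-5p never detected. On the severe array miR-122-5p was 1.68-fold lower and miR-192-5p 2.94-fold higher than on the naive array. The 5 muscle miRNAs summed to 1.88, 1.18, 3.63 and 0.0948, and on the severe array miR-133b-3p alone was detected. The severe array also stood apart technically, with 525 outlier spots of 14380 against 386 or 387 on the others, and with 854 intensity units of labelling spike-in signal against 1237 to 1388.

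**Figure D5:**
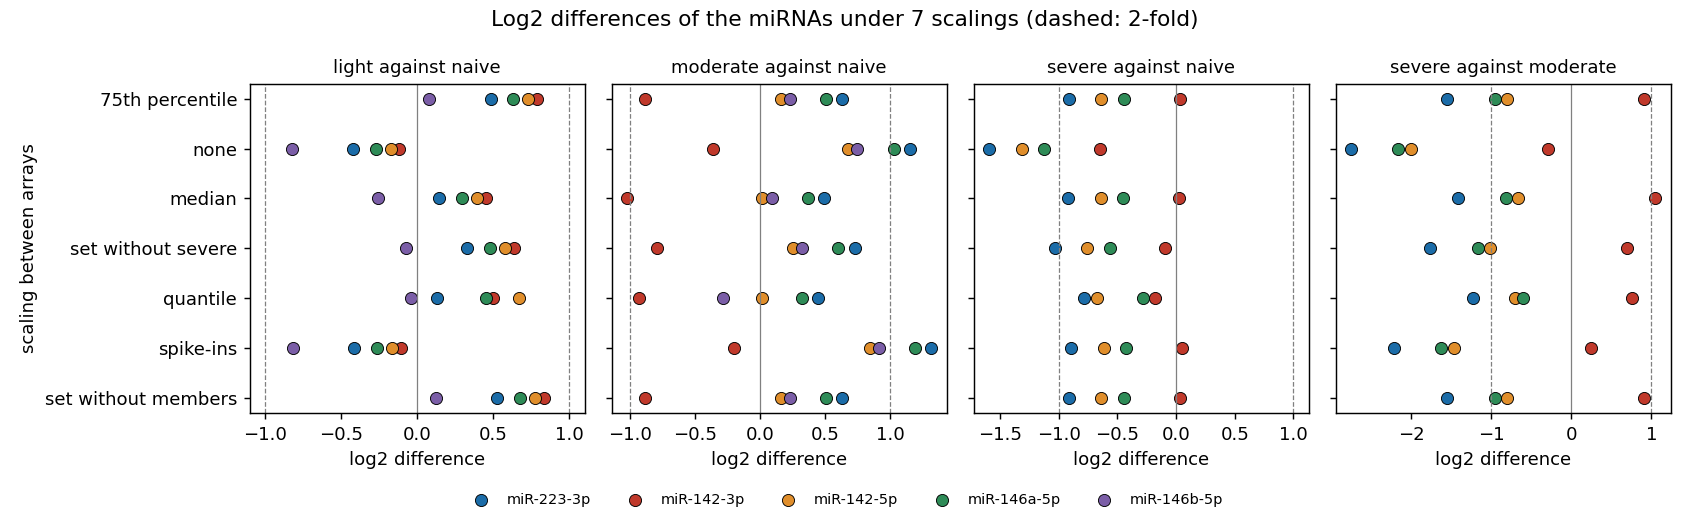
Log2 difference of each member (horizontal axis) under 7 scalings between arrays (rows) in 4 comparisons, with 2-fold dashed. A scaling moves all members of a comparison together, so their order is kept except with quantile normalization, while signs change for light against naive and for miR-142-3p on the severe array, and, with quantile normalization, for miR-146b-5p in the moderate comparison.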

How the data were processed

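RNA of serum exosomes was measured on 4 one-colour (Cy3) arrays lying on 1 slide. Per the file headers, the deposited intensity per spot came from Agilent Feature Extraction 10.7.3.1 with spatial detrending and background subtraction, and was not scaled between arrays; the submitters' processing notes name version 9.1. The label protocol describes linear amplification of cRNA, which is usual for messenger RNA. The deposited files also hold detection calls, spot flags and a total intensity per miRNA, which the deposited value table repeats for 102 miRNAs, 4 members among them.

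Outlier spots were left out, probe means were summed per miRNA, and the 75th percentile over miRNAs detected on all arrays set the scale. The floor was the lowest probe mean among probes whose spots were well above background in a share of 0.5 or more. A miRNA measured on 1 array of a comparison has a bound in place of a difference. Python 3.11.15 and, for normexp, limma 3.58.1 were used. The summing over probes and the differences were checked on spots drawn with known folds. That check took out the median shift of the unchanged miRNAs and gave every array the naive detection calls. The scaling between arrays and the detection per array were therefore not checked by it. The spot files used here have no mean raw signal, so normexp and plain subtraction took the median spot signal. Members and lists were chosen with earlier results of these data known. The members are always named, with their partner arms, the list members and, for each member measured on all arrays, the 3 nearest patterns.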

Additional observations from a re-analysis of the deposited data

How the results depend on the processing

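For the comparisons with naive and for severe against moderate, the reported counts of members past 2-fold were 0, except 1 lower for severe against moderate. Under 16 alternatives they changed as follows. Moderate and severe against the light array were not rerun. Without scaling, 2 members were higher for moderate against naive, and 3 were lower for severe against naive and for severe against moderate. With spike-in scaling, 2 were higher for moderate against naive and 3 lower for severe against moderate. With the percentile over miRNAs detected on the naive, light and moderate arrays, 1 was lower for severe against naive and 3 for severe against moderate. With median scaling, with detection by spots well above background and in the deposited value table, 1 was lower for moderate against naive and 1 higher for severe against moderate, miR-142-3p each time. Without a detection filter, 1 was lower for severe against naive and 2 for severe against moderate. With normexp, or with the scanner software's total signal, 1 was lower for severe against naive. Light against naive kept 0 in both directions. Over all miRNAs, the number at least 2-fold lower for light against naive was 32 without scaling and 31 with spike-ins, against 1. For moderate against naive, 36 and 57 were higher, against 8, and with normexp 0. For severe against moderate, 78 and 62 were lower, against 23, and with normexp 7. For severe against naive, 42 were lower and 17 higher without scaling, and 5 and 14 with normexp, against 21 and 24. The miR-142 arm difference for moderate against naive came under 2-fold with quantile normalization (0.95), normexp (0.75) and plain subtraction (0.89), and for severe against moderate with normexp (−0.95). Of values of single members, 238 kept their side of 2-fold and their sign within spot noise. Among the comparisons rerun, the only member value past 2-fold, that of miR-223-3p for severe against moderate, stayed past it in every alternative. A further 22 values newly passed 2-fold and 24 changed sign by more than spot noise. The cause was not tested.

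The arm differences of miR-142 and all ranks were recomputed under settings chosen after the values were seen. The planned scaling to the 75th percentile over all rat miRNAs gave no value, since most miRNAs were not detected and that percentile was −0.74 to 8.26 intensity units. No paired analysis was possible because each group has 1 array, and for the same reason none was left out in turn. The number of arrays and, for miR-146b-5p, a signal near the floor limit the precision.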
